A study of Mus musculus with 10 samples.

Results

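The granule secretion machinery of mouse platelets was examined through 10 genes, taken as the rows of the count table with these symbols out of 23420 rows in all: the vesicle SNAREs Vamp2, Vamp3, Vamp7 and Vamp8, the target SNAREs Snap23, Stx7, Stx11 and Gosr2, and the regulators Stxbp2 and Unc13d. Platelets from the peripheral blood of adult mice had been sorted into a Tomato+ and a Tomato- fraction, with 5 libraries each, and the comparison asks how the transcripts of platelets that carry the red fluorescent reporter compare with those of platelets that lack it. The sources used here do not give the allele and promoter that drive Tomato, the strain or the number of animals, and name no treatment for either fraction. Since nothing says that libraries came from separate animals, p-values rest on a spread between libraries that may be technical only.

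Platelets store adhesive proteins and chemokines in alpha granules and small molecules such as ADP in dense granules, and release both when activated. Release needs a SNARE on the granule (a VAMP) to zip together with SNAREs of the target membrane, a syntaxin and SNAP-23, into a bundle that pulls the membranes into fusion. Munc18-2, encoded by Stxbp2, binds and stabilises syntaxin 11, and Munc13-4, encoded by Unc13d, tethers granules before fusion. Loss of syntaxin 11, Munc18-2 or Munc13-4 causes familial haemophagocytic lymphohistiocytosis, an immune disease of failed cytotoxic granule release, with a platelet secretion defect described in patients or mice.

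The libraries held 5.41 to 16.2 M counts (M, 1000000), and 3 Tomato- libraries (replicates 1, 2 and 5) stood apart with 902, 978 and 807 detected genes, against 1118 to 2450 in the other 7 libraries. All 10 platelet marker genes, among them Itga2b, Clec1b, Tubb1 and Gp1bb, had counts in every library, with a summed level of 28473 ± 5175 CPM (counts per 1000000 counts of the library; mean ± SD, n = 5) in Tomato+ and 32909 ± 4177 CPM in Tomato-. Of 20 leukocyte markers with a row, 15 were at 0 in all 10 libraries, among them Cd3e, Cd79a, Gzmb and Csf3r. The leukocyte list summed to 6257 to 8932 CPM in Tomato+ and 5881 to 9029 CPM in Tomato-, nearly all of it Lyz2. Its other members with a count, S100a9, Nkg7, Ptprc and Ly6c2, had a count in 1 library each. Of 8 red cell markers with a row, 3 had a count in any library. The haemoglobin row Beta-s had 1.38 to 338 CPM in Tomato+ and 44.2 to 3257 CPM in Tomato-, and Alas2 had a count in 1 Tomato- library alone. The red cell list summed to 3440 CPM in Tomato- replicate 4 and to at most 765 CPM in each other Tomato- library. Sample numbers in the titles run through Tomato+ first and Tomato- second, and their order cannot be told apart from the group.

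The target SNARE genes Snap23 and Stx11 dominated the machinery in both fractions. Both had counts in all 10 libraries and together took 70.9 to 84.6% of the summed CPM of the 10 genes in Tomato+ libraries and 82.8 to 100% in Tomato-. Of the other 8 genes, Stx7 and Stxbp2 had counts in 8 libraries, Gosr2 in 5, Unc13d and Vamp3 in 4, Vamp8 and Vamp2 in 3, and Vamp7 in none. No tested member passed the test between the fractions: edgeR called 0 of 1016 tested genes at an adjusted p under 0.05 (0%) and 9 at an unadjusted p under 0.05 (0.886%), none of them a member. Without the filter on low counts edgeR gave 1764 of 4692 genes an unadjusted p under 0.05, none of them a member, and called 0. Evenly spread p-values would put a share of 0.05 there, and neither edgeR fit gave that share. A member without a call is therefore not shown to be equal between the fractions. DESeq2 called 217 of 2020 genes (10.7%) and 0 of the 8 members to which it gave an adjusted p. Fewer platelets carrying a transcript and less of it per platelet cannot be told apart in these bulk samples.

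**Figure D1:**
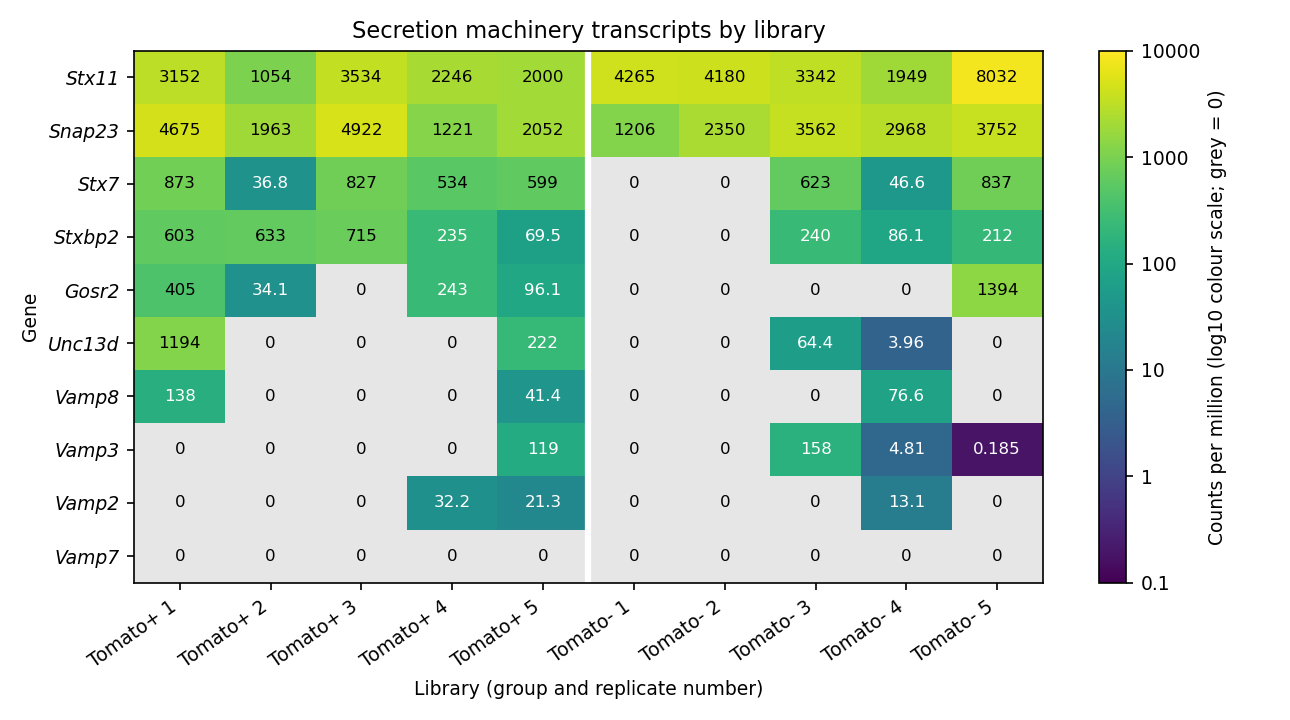
Level of each of the 10 genes (rows, ordered by mean level per kilobase, Vamp7 last) in each library (columns), in CPM on a log10 colour scale with the value printed and grey for 0. Stx11 and Snap23 had counts in all 10 libraries, whereas the vesicle SNAREs in the lower rows were at 0 in most.

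Snap23, on chromosome 2 (120567671 to 120601255, plus strand, GRCm38), encodes SNAP-23, which contributes a pair of SNARE helices to the fusion bundle and is held at the plasma membrane by lipid anchors. Snap23 had 4675, 1963, 4922, 1221 and 2052 CPM in Tomato+ replicates 1 to 5 and 1206, 2350, 3562, 2968 and 3752 CPM in Tomato- replicates 1 to 5. The groups overlapped: Tomato+ replicates 1 and 3 lay above every Tomato- library, the other 3 Tomato+ libraries lay within the Tomato- range, and the lowest values of both groups were alike. The means were 2967 ± 1705 and 2768 ± 1031 CPM (SD, n = 5 each). Its log2 fold change, Tomato+ over Tomato-, was 0.27 (SE 0.43, 95% interval -0.65 to 1.19, edgeR adjusted p = 0.9996). A fall to below 0.639 of the Tomato- level or a rise above 2.28-fold lay outside the interval of this fit, though not outside that of every fit. The interval was wider, -1.02 to 1.74, in edgeR without the filter on low counts, and DESeq2 gave an SE of 1.41. The edgeR log2 fold change fell to -0.08 when the 3 sparsest Tomato- libraries were left out and to -0.02 without Tomato+ replicate 3. By mean CPM Snap23 ranked 54 among the 4692 genes with a count in any library.

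Stx11, on chromosome 10 (12938209 to 12964298, minus strand), encodes syntaxin 11, the target-membrane syntaxin of platelet granule release. It had 3152, 1054, 3534, 2246 and 2000 CPM in Tomato+ and 4265, 4180, 3343, 1949 and 8032 CPM in Tomato-, in replicate order. Tomato- replicates 1, 2 and 5 lay above every Tomato+ library, and replicates 3 and 4 lay within the Tomato+ range. The means were 2397 ± 980 and 4354 ± 2257 CPM. The log2 fold change was -0.58 (SE 0.37, 95% interval -1.36 to 0.20, edgeR adjusted p = 0.9996, unadjusted p = 0.135). A rise of more than 1.15-fold in Tomato+ lay outside the interval of this fit, though not outside that of every fit. The interval was wider, -1.80 to 0.86, in edgeR without the filter on low counts, and DESeq2 gave an SE of 1.405.

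The 3 highest Stx11 libraries were the 3 with under 1000 detected genes, at 4180 to 8032 CPM against 1054 to 3534 CPM in the other 7. Without them the log2 fold change of Stx11 was -0.07 (SE 0.42), and without Tomato- replicate 5 alone it was -0.27. The part of low gene detection in the difference was not tested. With scaling by total counts, which lowers the median log2 fold change over all tested genes from 0.21 to -0.03, Stx11 had -0.86 (95% interval -1.65 to -0.06; edgeR adjusted p = 1) and Snap23 0.10.

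**Figure D2:**
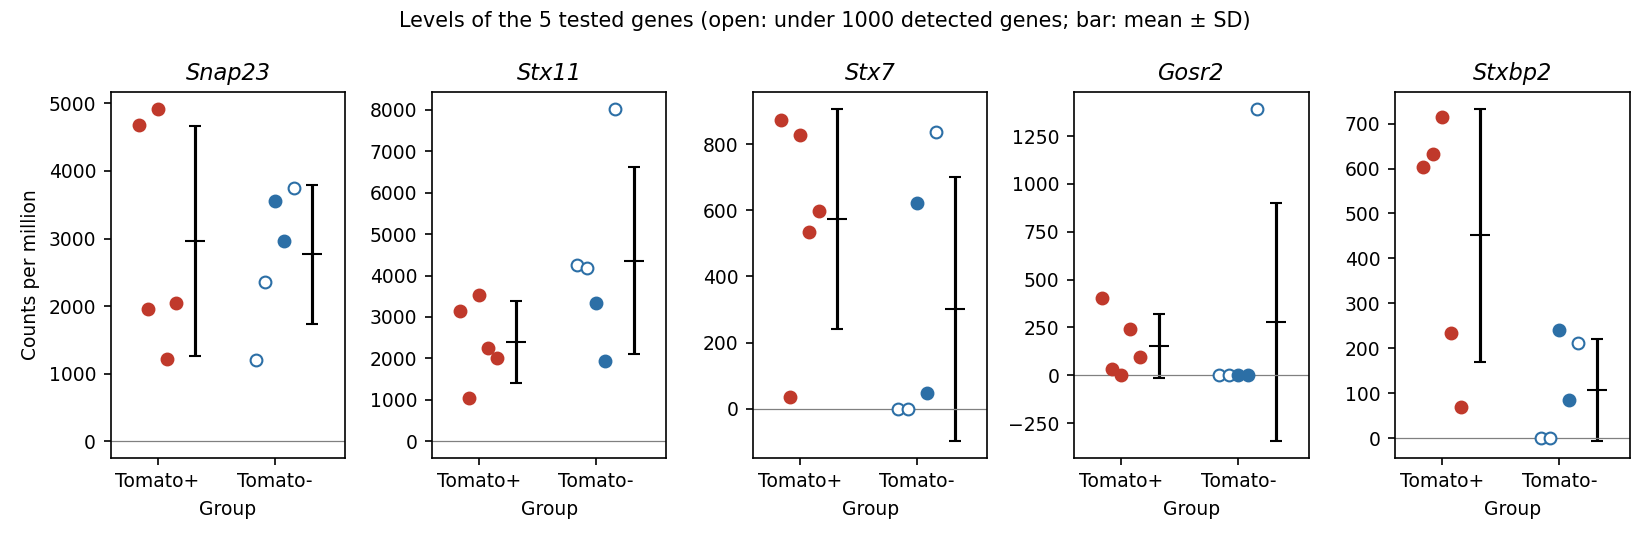
CPM (vertical axes, linear, a separate scale per gene) of the 5 members that could be tested, 1 point per library, with Tomato+ in red, Tomato- in blue, open points for the 3 libraries with under 1000 detected genes, and the mean ± SD of 5 libraries beside them. The open points are the 3 highest Stx11 libraries, and 2 of them are at 0 for Stx7 and Stxbp2.

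Stx11 and Snap23 did not keep a fixed ratio. Stx11 divided by Snap23, in CPM, ran from 0.537 to 1.84 in Tomato+ and from 0.657 to 3.54 in Tomato-. Per kilobase of merged exons, the scale on which levels of different genes are compared here, Stx11 had 802 ± 460 CPM per kilobase and Snap23 668 ± 310 (n = 10). Stx11 was the higher of the pair in 4 of 10 libraries, 1 Tomato+ and 3 Tomato-, and with the longest annotated transcript as the length Snap23 came first. Across the 10 libraries Pearson's r of their log2 CPM was 0.31, as a description over libraries that share depth differences.

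Stx7, on chromosome 10 (24149302 to 24190222, plus strand), encodes syntaxin 7, a syntaxin of late endosomes and lysosomes. It had 873, 36.8, 827, 534 and 599 CPM in Tomato+ and 0, 0, 623, 46.6 and 837 CPM in Tomato-. Every Tomato+ library had counts, and the 2 Tomato- libraries at 0, replicates 1 and 2, were among the 3 with the fewest detected genes. The log2 fold change was 1.12 (SE 1.95, 95% interval -3.02 to 5.25; edgeR adjusted p = 0.9996), an interval that spans 307-fold from end to end.

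Gosr2, on chromosome 11 (103676849 to 103697898, minus strand), encodes membrin, a SNARE of transport between the endoplasmic reticulum and the Golgi. It had 405, 34.1, 0, 243 and 96.1 CPM in Tomato+ and was at 0 in Tomato- replicates 1 to 4, with 1394 CPM in Tomato- replicate 5, the highest value of any library. More Tomato+ than Tomato- libraries had counts (4 and 1), yet the Tomato- mean of 279 ± 623 CPM exceeded the Tomato+ mean of 156 ± 167 CPM through that library alone. Tomato- replicates 1 and 2, at 0, had 902 and 978 detected genes, and replicate 5 had the fewest of all libraries, 807. The log2 fold change was -0.50 (SE 2.81; edgeR adjusted p = 0.9996) and turned positive without Tomato- replicate 5, when all Tomato- libraries left were at 0. In the annotation 4.56% of the merged exon length of Gosr2 is shared with an antisense transcript that has no row in the table. The strand setting is unknown here, so reads from that stretch cannot be assigned to either.

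Among the regulators, Stxbp2, on chromosome 8 (3630955 to 3643644, plus strand), had 603, 633, 715, 235 and 69.5 CPM in Tomato+ and 0, 0, 240, 86.1 and 212 CPM in Tomato-. Tomato+ replicates 1 to 3 lay above all Tomato- libraries, and replicates 4 and 5 lay within the Tomato- range. The means were 451 ± 282 and 108 ± 114 CPM. The log2 fold change of 2.17 had an SE of 2.11 and a 95% interval of -2.32 to 6.65 (edgeR adjusted p = 0.9996), and leaving out the 3 sparsest libraries, which include both Tomato- libraries at 0, gave 1.54. None of the 5 tested members had groups that did not overlap, and among all 1016 tested genes 0.591% did.

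Unc13d, on chromosome 11 (116062095 to 116077961, minus strand), was too irregular for the filter on low counts and was not tested. It had 1194 CPM in Tomato+ replicate 1, 222 CPM in Tomato+ replicate 5, 64.4 CPM in Tomato- replicate 3 and 3.96 CPM in Tomato- replicate 4, and was at 0 in the other 6 libraries. The Tomato+ mean of 283 CPM was 55.5 CPM without replicate 1, and the Tomato- mean of 13.7 CPM was 0.991 CPM without replicate 3. Unc13d is also active in cytotoxic lymphocytes. Of the 4 libraries with Unc13d counts, Tomato- replicate 4 also had counts of Nkg7 (20.7 CPM) and Ptprc (1.23 CPM), and Tomato+ replicate 5 had 1 count of Ly6c2. In Tomato+ replicate 1 and Tomato- replicate 3 Lyz2 was the sole leukocyte marker with a count, and Gzma, Gzmb and Prf1 were at 0 in all 10 libraries. The part of other cells in the Unc13d counts was not tested.

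**Figure D3:**
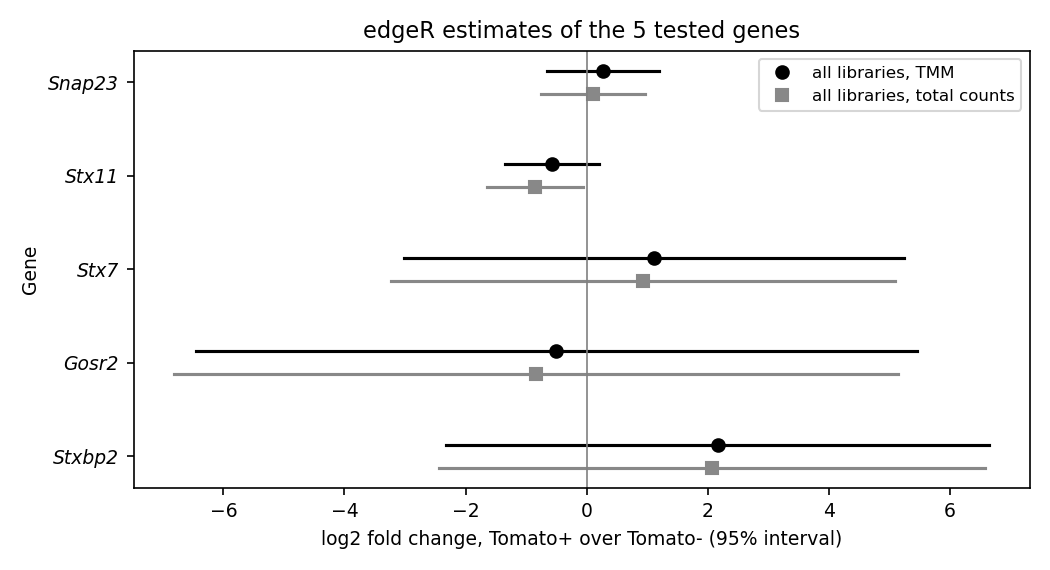
Log2 fold change of Tomato+ over Tomato- (horizontal axis) with its 95% interval for the 5 tested members in edgeR, with TMM scaling (circles) and scaling by total counts (squares). The intervals of Snap23 and Stx11 are narrow beside those of Stx7, Gosr2 and Stxbp2, which were at 0 in 2 to 5 libraries, and only that of Stx11 with scaling by total counts lies wholly on 1 side of 0.

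The 3 vesicle SNAREs with a count in any library had low levels in both fractions. The 4 rows, with Vamp7 at 0, summed to 70.2 ± 84.0 CPM in Tomato+ and 50.6 ± 72.8 CPM in Tomato-. The 4 target SNAREs summed to 6094 ± 2894 and 7701 ± 3665 CPM, and the 2 regulators to 734 ± 629 and 121 ± 134 CPM. These sums are not divided by gene length, and the zeros of Vamp7 put no limit on its level. The gap to the regulators in Tomato- was smaller than their SD, and 2 libraries of each group had no count for any vesicle SNARE. None of the 4 passed the filter on low counts, so none was tested.

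Vamp8 encodes the VAMP on which platelet granule release is known to depend most, and lies on chromosome 6 (72385223 to 72390703, minus strand). It had 138 CPM in Tomato+ replicate 1, 41.4 CPM in Tomato+ replicate 5 and 76.6 CPM in Tomato- replicate 4, with 0 in the other 7 libraries. For a library with no count, 3 counts correspond to between 0.185 and 0.554 CPM depending on its depth. That limit covers counting error only, since reads without molecular identifiers are not independent molecules. All 3 counted libraries of Vamp8 lay above it.

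Vamp3, which encodes cellubrevin of recycling endosomes (chromosome 4, 151047300 to 151057963, minus strand), had 119 CPM in Tomato+ replicate 5 and 158, 4.81 and 0.185 CPM in Tomato- replicates 3 to 5. The last of these was a single count. Vamp3 lies within the span of Camta1 on the same strand, with no exon base shared in the annotation. Vamp2, best known as the synaptic vesicle SNARE synaptobrevin 2 (chromosome 11, 69088490 to 69092384, plus strand), had 32.2 and 21.3 CPM in Tomato+ replicates 4 and 5 and 13.1 CPM in Tomato- replicate 4. Both genes were at 0 in all other libraries. Tomato+ replicate 5 and Tomato- replicate 4 were the sole libraries with counts for 3 vesicle SNAREs, and they had the most detected genes of all, 2450 and 2430.

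Vamp7, which encodes a VAMP of lysosome-related membranes known for granule movement in spreading platelets, was at 0 in all 10 libraries. In the GENCODE annotation of GRCm38 Vamp7 lies on a scaffold that is not placed within a chromosome. The table held 8 rows that this annotation places on such scaffolds alone, Vamp7 among them, and all 8 were at 0 in every library. Only 20% of all rows had a count somewhere, so 8 rows at 0 do not show that scaffolds were missing. Whether these genes lacked a place in the index or lacked expression was not tested. The sources used here do not say whether the authors' alignment index held these scaffolds, so the zeros of Vamp7 put no limit on its level in platelets.

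Ordered by mean CPM per kilobase over all 10 libraries pooled, Stx11 and Snap23 were followed by Stx7 (97.8 ± 83.9), Stxbp2 (67.2 ± 65.4), Gosr2 (66.5 ± 133), Unc13d (31.7 ± 79.9), Vamp8 (11.1 ± 20.4), Vamp3 (9.76 ± 20.4) and Vamp2 (1.75 ± 3.05). One gap between neighbours exceeded its spread over libraries: Snap23 was above Stx7 in 10 of 10 libraries, by 570 ± 261 CPM per kilobase. All other neighbours differed by less than 1 SD of their difference. Vamp8 and Vamp3 changed places with the longest transcript as the length. The pooled order held in neither group alone. In Tomato+ Snap23 (691 CPM per kilobase) stood above Stx11 (570), and Unc13d (60.5) above Gosr2 (47.6). In Tomato- Gosr2 (85.3), through replicate 5 alone, stood above Stx7 (67.3) and Stxbp2 (25.9), and Unc13d (2.92) stood below Vamp3 (11.3) and Vamp8 (6.63).

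Counts of these genes were mostly either absent or large. Of the 100 pairs of a member and a library, 45 were at 0, 1 had 1 to 9 counts, 2 had at least 10 but under 100, and 52 had 100 or more. Among pairs above 0, 94.5% had 100 counts or more, against 91.2% over the 1016 tested genes and 75.0% over all genes with a count in any library. Without Vamp7, zeros made up 63.0% of pairs in the 3 libraries with under 1000 detected genes and 28.6% in the other 7, against 80.9% and 62.8% over all genes with a count in any library.

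The number of the 10 genes with a count was 7, 5, 4, 6 and 9 in Tomato+ replicates 1 to 5 and 2, 2, 6, 8 and 6 in Tomato- replicates 1 to 5. The means were 6.2 ± 1.92 and 4.8 ± 2.68, a difference smaller than either SD. Leaving out the 3 libraries with under 1000 detected genes gave a Tomato- mean of 7 ± 1.41 over the 2 libraries left. Removing libraries for few detected genes, from Tomato- alone, favours a higher number there, so that mean does not order the fractions. Thinning every library to the smallest total left both means as they were. It had little room to change them, since 52 of the 55 counts above 0 were 100 or more.

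**Figure D4:**
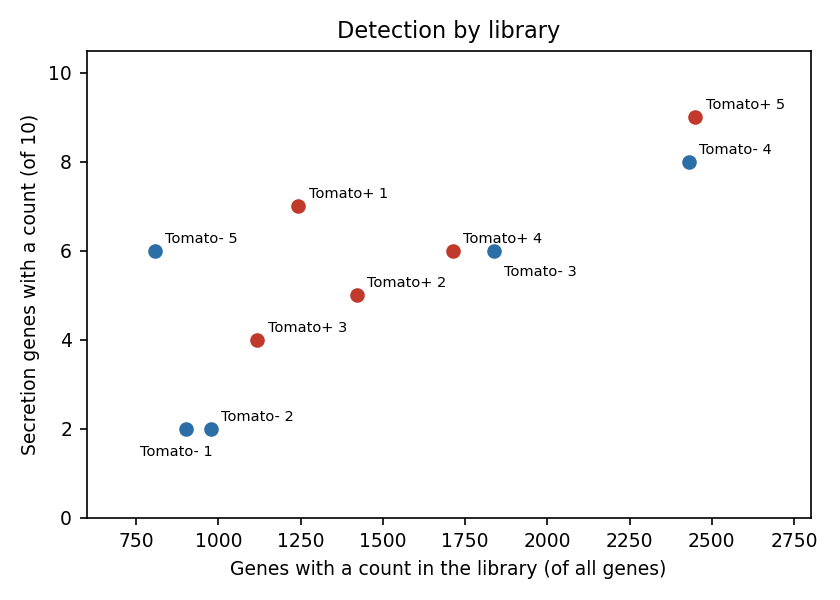
Number of the 10 secretion genes with a count (vertical axis) against the number of all genes with a count (horizontal axis), 1 point per library, Tomato+ in red and Tomato- in blue. Tomato- 1 and Tomato- 2 sit lowest with 2 secretion genes each, and Tomato+ 5 and Tomato- 4, with the most detected genes, sit highest with 9 and 8.

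Of 28 other SNARE genes, 13 had a count in any library, none had one in every library, and Vti1b, a SNARE of endosomal fusion, was the 1 that could be tested. It had counts in 3 libraries of each group (49.0 ± 58.4 and 58.0 ± 91.6 CPM) and a log2 fold change of -0.29 (SE 2.63; edgeR adjusted p = 0.9996). Stx2 had counts in 2 Tomato+ and 1 Tomato- libraries, while Stx16, a Golgi syntaxin, and Sec22b, a SNARE of the early secretory route, had counts in 3 and 2 Tomato+ libraries and in no Tomato- library. Snap25, the neuronal relative of Snap23, was among the 15 at 0 throughout.

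Of 38 genes for SNARE disassembly, other Munc18 proteins and tethering, 18 had a count and 3 were tested, with 0 higher and 0 lower past the threshold (median log2 fold change -0.08, against 0.21 over all 1016 tested genes). Rab27b, the GTPase that marks dense granules for release, had counts in 4 libraries of each group, with 512 ± 377 and 744 ± 495 CPM in the Tomato+ and Tomato- fractions, and its log2 fold change was -0.31 (SE 1.69). Sytl4, which encodes granuphilin, a Rab27 effector, had 406 ± 593 and 179 ± 267 CPM, and Exoc4, an exocyst subunit, 152 ± 166 and 172 ± 196 CPM. Exoc6, another exocyst subunit, had counts in 2 libraries of each group and was not tested. Nsf and Napa, the ATPase and adaptor that take spent SNARE bundles apart, had counts in 1 Tomato+ and 2 Tomato- libraries each.

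Genes of granule biogenesis had 11 of 23 rows with a count, none in every library and none tested. Dtnbp1, Bloc1s1, Ap3b1 and Ap3s1, subunits of complexes that sort cargo to lysosome-related organelles, led the list with counts in 2 to 4 libraries each. Granule cargo was measured far more evenly, with 8 of 14 genes counted in every library and summed levels of 52828 ± 2351 and 50264 ± 4446 CPM. Its 10 tested genes had a median log2 fold change of 0.21, equal to that of all tested genes to 2 decimals, and 0 passed in either direction. Its most abundant genes were Ppbp, Pf4, Clu and Vwf.

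The genes whose levels followed the members most closely were sought by Pearson's r of log2 CPM over the 10 libraries, in a set of 254 genes that every library had counted. For Stx11 these were Gp6, the collagen receptor glycoprotein VI (r = 0.91), and the tetraspanin Tspan2 (r = 0.86). Gp6 too had its 3 highest values in the libraries with under 1000 detected genes, 1681 to 2608 CPM against 160 to 764 CPM in the other 7. For Snap23 they were Ecm1, which encodes extracellular matrix protein 1 (r = 0.77), and the serpin gene Serpinb9f (r = 0.74), the latter at 0.0618 to 0.428 CPM, a level of a few counts. The highest of many values is picked here, so these r are descriptions without a test.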

How the data were processed

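Platelet RNA was measured in 5 Tomato+ and 5 Tomato- libraries, whose cDNA came from a Smart-seq+ protocol and was turned into libraries with Nextera XT, per the labels' protocols. The table deposited by the authors holds raw read counts, without normalization or molecular identifiers. Trimmomatic, FastQC, STAR, featureCounts and the build mm10 are named, without versions, per the submitters' processing notes. The sources used here do not give the annotation, the strand setting or the treatment of multiply aligned reads.

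Of 23420 symbols, 93% matched GENCODE M21 (GRCm38, the assembly mm10 names), which gave coordinates and merged exon lengths. Levels are CPM of all counts, and detection is 1 count or more. The whole table was fitted in R 4.3.3 by the robust quasi-likelihood F test of edgeR 4.0.16 with TMM factors, its default filter (minimum count 10, minimum total 15) and group as sole term. P-values were adjusted by Benjamini-Hochberg at 0.05, and each edgeR SE is the absolute log2 fold change over the root of F. DESeq2 1.42.0 was an alternative, with the SE that it reports itself. The fit was tested on simulated counts. All 45 library pairs differed beyond the noise of counting independent reads (chi-square of at least 510 per degree of freedom). Reads without molecular identifiers are not independent molecules, so this check does not cover noise from sampling few molecules.

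All 10 members are named, with up to 4 of the most abundant genes of each other list and the 2 genes most like each member that every library had counted; 1 red cell marker is not reported here. Snap25, Nsf, Napa, Cadps2, Exoc8, Ly6c2 and the leukocyte markers named at 0 lie outside this rule and were chosen after their values were seen. The members and lists were chosen with earlier results of these data known. Alternatives were total-count scaling, other filters, the replicate block, leaving out libraries, thinning and another gene length. Leaving out the 3 sparsest libraries for the number of members detected was added after seeing the data.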

Additional observations from a re-analysis of the deposited data

Results flagged for a closer look

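In groups of 5 libraries, a value was singled out where its gap to the nearest other value exceeded 0.71 of the group's range. This held in 7 of 22 groups. Chance flags about 1 group in 20 where values follow a normal distribution, which these CPM values were not shown to do. Beyond that, 4 zeros beside 1 count meet the limit by construction, as in Vamp2, Vamp8 and Gosr2 in Tomato- and Vamp3 in Tomato+. The number of flags is therefore not set against chance. Gosr2 had 1394 CPM in Tomato- replicate 5 with 0 in the other 4 Tomato- libraries. Unc13d had 1194 CPM in Tomato+ replicate 1, where the next value was 222 CPM, and 64.4 CPM in Tomato- replicate 3, where the next was 3.96 CPM. Vamp3 had 119 CPM in Tomato+ replicate 5 with the others at 0, and 158 CPM in Tomato- replicate 3 with the next at 4.81 CPM. Vamp8 with 76.6 CPM and Vamp2 with 13.1 CPM each had their single Tomato- value in replicate 4, the Tomato- library with the most detected genes.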

How the results depend on the processing

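The count of called genes was 0 in edgeR under total-count scaling, both other filters, the replicate block, and each of the 10 fits with 1 library left out (range 0 to 0), and 217 with DESeq2; the cause was not tested. With the replicate block no gene was called and no member's call changed. Same-numbered libraries correlated between -0.11 and 0.12 in their deviations from the group means. Only Tomato+ replicates 1 and 4 and Tomato- replicate 1 correlated best with their own number, and the numbers were not read as pairs. With 23.0% of values of the tested genes at 0, these correlations cannot show whether same-numbered libraries shared an animal. The log2 fold change of Snap23 reversed to -0.079 without the 3 Tomato- libraries with under 1000 detected genes, and ranged from -0.018 (without Tomato+ replicate 3) to 0.464 with 1 library left out. That of Gosr2 was 10.74 with the replicate block and 13.69 without those 3 libraries, and ranged from -1.39 to 13.74 (without Tomato- replicate 5) with 1 library left out; the values near 13.7 set counts against a group at 0, depend on the prior count and are no bound. Stx7, Stx11 and Stxbp2 kept their sign in every edgeR and DESeq2 fit that gave them a value, with ranges of 0.83 to 1.97, -0.78 to -0.27 and 1.90 to 2.84 with 1 library left out. Outside these ranges lay Stx7 at 4.15 and Stxbp2 at 3.27 with the replicate block, Stx11 at -0.07 and Stxbp2 at 1.54 without the 3 sparsest libraries, and Stx11 at -0.86 with total-count scaling, -0.79 with DESeq2 and -0.80 on genes with 10 counts in every library. The mean number of members detected ranged from 5.5 to 6.75 in Tomato+ and from 4 to 5.5 in Tomato- with 1 library left out. Thinning all libraries to the smallest total left both means at 6.2 and 4.8, with little room for change, since most member counts above 0 were 100 or more.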

Other observations

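Cadps2 and Exoc8, of the same pathway, had a counting pattern unlike that of the members, low but counted in almost every library. Cadps2, which encodes a priming factor of dense-core vesicles, had counts in 9 of 10 libraries at no more than 0.941 CPM in Tomato+ and 1.63 CPM in Tomato-. Exoc8, an exocyst subunit, also had counts in 9 libraries, at no more than 1.03 and 1.23 CPM. Their group means, 0.371 and 0.680 CPM for Cadps2 and 0.503 and 0.688 CPM for Exoc8, are a level of a few counts. For comparison, 3 counts correspond to 0.185 to 0.554 CPM. Among all 4692 genes with a count in any library, 133 had counts in exactly 9 libraries, so the pattern is not particular to this pathway. Neither was tested, since both were below the filter on low counts, and both were singled out after their values were seen. By comparison, Vamp8 reached 138 CPM and had counts in 3 libraries.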
